A study of Temnothorax rugatulus with 32 samples.

Results

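The transcripts described here are 21 contigs of RNA processing and splicing proteins from the queens of the ant Temnothorax rugatulus. A contig is 1 assembled transcript sequence. They were found by words in the descriptions that the authors' deposited age tables give to contigs (such as splic, ribonucleoprotein, RNA helicase, RNA-binding, exosome and initiation factor 4A-III, but not ribosomal protein), with an ant as the species of the best database hit. The 21 contigs stand among 1073 described contigs, of which 771 have an ant hit, and among 228763 contigs in all. They come from 19 assembly genes, are 620 to 6616 bases long, and have their best hits in 12 ant species. One more contig carried the same words with a hit outside the ants, and with a highest count of 15 and a count in 10 libraries it was too low to be tested.

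The authors list a contig in an age table when its level differed between old and young queens in their own test. Of the 21 contigs, 20 come from the fat body table and 1, heterogeneous nuclear ribonucleoprotein U (hnRNP U), comes from the brain table. All 20 were listed as lower in old fat bodies, where 371 of the 716 ant-hit contigs of that table (51.8%) were lower, and hnRNP U was listed as lower in old brains. The age difference in the tissue of its own table therefore chose each contig and is given below as a description. The contigs closest to the authors' limit of 0.05 in the authors' deposited table were a dbp2-like helicase of 2289 bases at an adjusted p of 0.0456, small nuclear ribonucleoprotein G at 0.0451 and the 27 kDa protein of the U4/U6.U5 particle at 0.045. Contigs just outside that limit are not listed there.

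Most animal genes are transcribed with introns, which the spliceosome cuts out of the pre-mRNA. The spliceosome is built from small nuclear ribonucleoprotein particles (snRNPs), each of them an RNA with its proteins, that recognise the ends of an intron and its branch point in turn. RNA helicases of the DEAD-box family remodel RNA and its proteins from transcription to decay, hnRNPs package the transcript and bias the choice of splice sites, and the exosome trims or destroys RNA from its 3′ end.

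RNA was sequenced from the brain and the fat body, which stores nutrients and makes most blood proteins in insects, of 16 queens collected in the field. The labels call 8 queens old and 8 young, with no age in years, and both tissues of each queen were taken, so that 32 libraries fall into old brain, young brain, old fat body and young fat body with 8 in each. No treatment or genotype is given. The labels say nothing of colony or of the number of mates.

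Total counts were 13861667 to 33461227 per library. The 100 most abundant contigs took a median of 53.55% of the counts in old fat bodies (45.1% to 56.5%) and 41.8% in young ones (37.1% to 50.6%), against 19.45% in old and 21.15% in young brains. The labelled tissues carried their markers: complexin and a neuronal acetylcholine receptor subunit, the 2 neuron contigs that carry a description, summed to 48.8 to 202 CPM (counts per 1000000, TMM-scaled over all 32 libraries) in brains and 0.0849 to 5.78 CPM in fat bodies. Of 12 contigs of fat body enzymes and transferrin, the 6 tested were all higher in fat bodies. The 12 summed to 140 to 457 CPM in old and 114 to 334 CPM in young brains. Their sums were 1020 to 8490 CPM in old and 143 to 2990 CPM in young fat bodies, and the latter overlapped the brains. No described contig matched the ovary and germline words. In whole tissues, fewer cells of a type and less RNA per cell cannot be told apart.

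Levels can be compared between contigs once they are divided by length. The contig of RNA-binding protein Rsf1, which in Drosophila is a repressor of splicing, had the highest median level per length in fat bodies, at 70.5 CPM per kilobase in old and 104 in young queens. In brains the highest was the longer of 2 contigs named squid-like, after the Drosophila hnRNP that localises mRNA in the oocyte, at 68.2 CPM per kilobase in old and 73.1 in young queens. At the other end, the pre-mRNA-processing factor 6 contig had a median of 0.544 to 1.42 CPM per kilobase in the 4 groups. That of the hnRNP U contig was 2.01 to 4.2. Both are minor contigs of their assembly genes, so these levels are not those of the genes. Another contig of the gene had medians of 37.3 to 46.6 CPM for pre-mRNA-processing factor 6 and of 28 to 71.7 CPM for hnRNP U. The pre-mRNA-processing factor 6 contig had 0 to 40 counts per library, while the highest count of each of the other 20 contigs was at least 183 in every group.

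**Figure D1:**
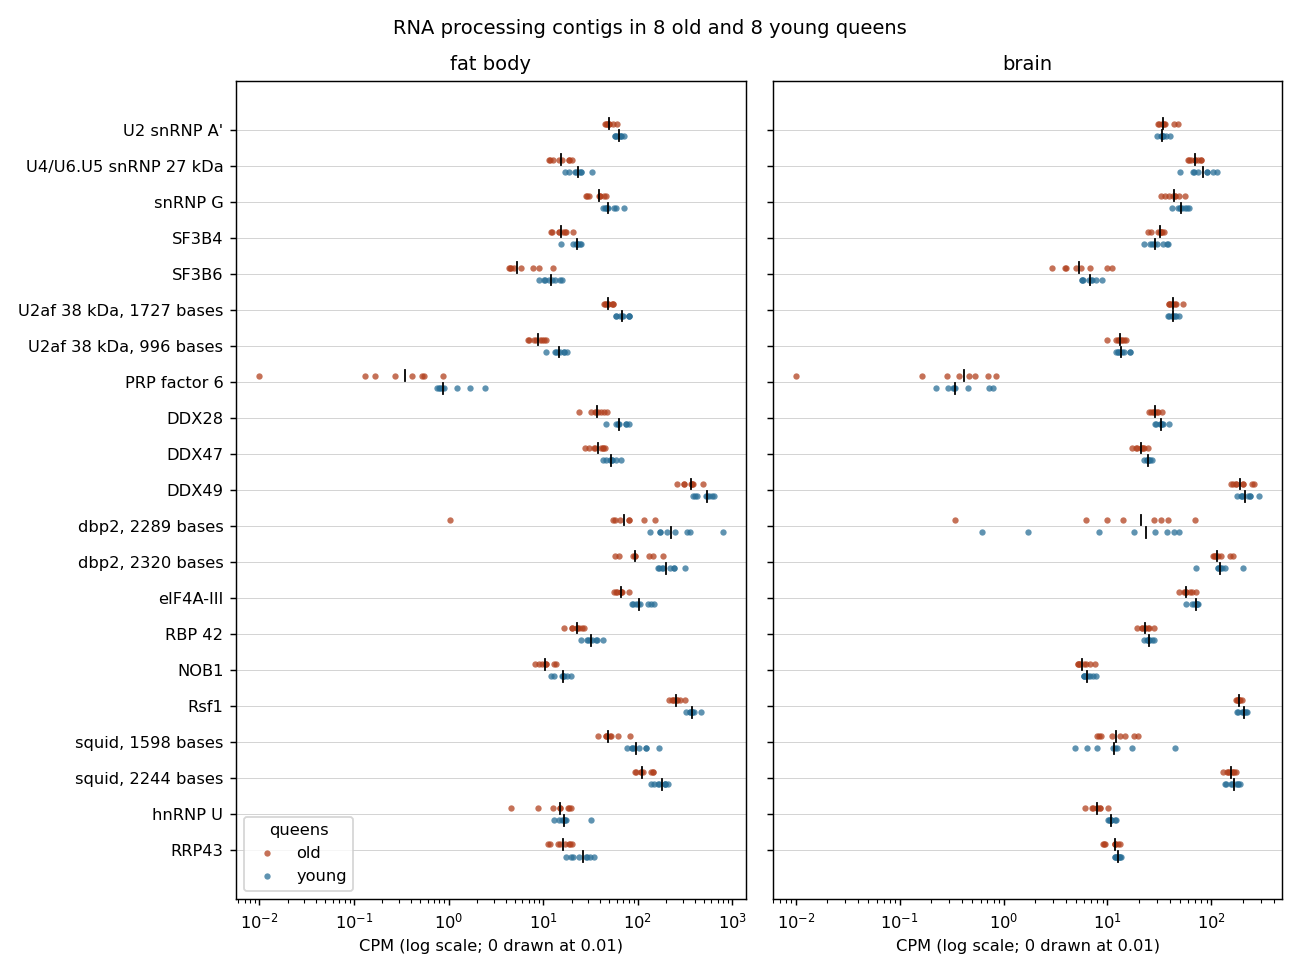
Level of each of the 21 contigs in CPM, on a log axis, with the fat body on the left and the brain on the right. Points are single libraries of old (red) and young (blue) queens, black ticks are group medians, n = 8 queens per group, and a count of 0 is drawn at 0.01. The longer U2af contig reaches 54.3 CPM in old fat bodies and starts at 58.9 CPM in young ones, while its brain values of both ages lie between 38.6 and 53.2 CPM.

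The first comparison asked where these transcripts were more abundant, in the fat body or in the brain, averaged over both ages. Age and not this contrast chose the contigs, but this contrast is not free of that choice. For 20 of the 21 the choice used the fat body libraries of this fit. A contig without counts there could not be listed. Of the 21 contigs, 13 were higher in the fat body, 3 were higher in the brain and 5 did not pass (edgeR quasi-likelihood test over 48253 contigs, Benjamini-Hochberg adjusted p under 0.05). Over all contigs tested 65.2% passed, 25.2% as higher in the fat body and 40% as higher in the brain, and the median log2 difference was -0.39. The median of the 21 contigs was 0.61 (log2, fat body minus brain). Of the 692 ant-hit described contigs tested, 428 (61.8%) were higher in the fat body with a median of 0.71, so the 61.9% among the RNA processing contigs is close to that of the described contigs at large. Among the 650 tested ant-hit contigs of the fat body table the share was 64.5%, with a median of 0.81.

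Of the 692 ant-hit described contigs tested, 428 were higher in the fat body and 148 in the brain. The 7 contigs named as splicing factors or snRNP proteins were split between the tissues, with 3 higher in the fat body, 3 higher in the brain and 1 that did not pass. Pre-mRNA-processing factor 6, a spliceosome protein whose name holds none of these words, is described further on and did not pass either. The largest difference toward the brain among the 21 contigs was that of the 27 kDa protein of the U4/U6.U5 particle, the tri-snRNP that brings the catalytic RNAs to the intron. It had a lowest, median and highest level of 59.3, 69.2 and 80.1 CPM in old brains and of 11.6, 15.3 and 20.1 CPM in old fat bodies. In young queens the values were 50.1, 82.1 and 113 CPM in brains and 17, 23.1 and 32.8 CPM in fat bodies. Every fat body library lay below every brain library at both ages (beside 18% of all contigs in old and 20.9% in young queens), and all 16 queens had more in the brain. The log2 difference was -1.98 ± 0.12 (SE; edgeR adjusted p = 3.2e-15), a level 3.96 times as high in the brain.

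Splicing factor 3B subunit 4 (SF3B4), a protein of the complex that holds the branch point, went the same way. Its lowest, median and highest levels were 24.7, 32.3 and 35.1 CPM in old brains and 12, 15.5 and 20.8 CPM in old fat bodies, with no overlap (beside 18% of all contigs). In young queens they were 22.3, 28.9 and 38.1 CPM in brains and 15.5, 22.7 and 25 CPM in fat bodies, and these overlapped. Each of the 16 queens had the lower value in the fat body, and the log2 difference was -0.72 ± 0.1 (edgeR adjusted p = 9.4e-08).

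The small subunit of U2AF, which recognises the 3′ splice site, is represented by 2 contigs from different assembly genes that differed in direction. The contig of 1727 bases was higher in the fat body by 0.45 ± 0.07 (log2, adjusted p = 7.5e-07) and was higher there in 15 of 16 queens. The contig of 996 bases ranged from 9.87 to 15 CPM in old and from 12.2 to 16.3 CPM in young brains, and from 6.92 to 10.8 CPM and 10.8 to 17.8 CPM in the fat bodies, overlapping at both ages. It was higher in the brain with a log2 difference of -0.25 ± 0.09 (adjusted p = 0.021). The latter was lower in the fat body in all 8 old queens and in 3 of the 8 young ones, and its call was lost without young queen Y-102 (adjusted p = 0.1) and without young queen Y-453 (adjusted p = 0.051).

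Unlike SF3B4, U2 small nuclear ribonucleoprotein A′ was higher in the fat body. This core protein of the U2 particle had medians of 34.4 and 33.7 CPM in old and young brains against 49.1 and 63.4 CPM in fat bodies. The log2 difference was 0.67 ± 0.07 (edgeR adjusted p = 8.7e-10). The SF3B6-like contig, named after a subunit that contacts the branch point, was higher by 0.48 ± 0.18 (adjusted p = 0.02), a call that was lost without old queen O-469 (0.33, adjusted p = 0.081) and with the contigs of its gene summed (0.06, adjusted p = 0.5). Small nuclear ribonucleoprotein G, of the ring of Sm proteins around the RNA of several snRNPs, did not pass, at -0.11 with a 95% interval of -0.30 to 0.08.

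All 6 helicase contigs had higher fitted levels in the fat body and 5 of them passed. Beside them 61.8% of the ant-hit described contigs and 25.2% of all contigs passed as higher there. The dbp2-like contigs among the 6 share an assembly gene, and nothing about helicases as a class is read from so few contigs. DDX49, which in human cells acts in ribosomal RNA processing, ranged from 156 to 256 CPM (median 188) in old and from 176 to 289 CPM (median 212) in young brains. In fat bodies it ranged from 258 to 487 CPM (median 365) in old and from 385 to 631 CPM (median 533) in young queens. Fat body libraries lay above brain libraries at both ages without overlap (beside 9.21% of all contigs in old and 8.7% in young queens), and the log2 difference was 1.04 ± 0.1 (adjusted p = 1.1e-10).

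DDX47, another helicase of ribosomal RNA processing in yeast and human cells, ranged from 17.3 to 24.7 CPM (median 21.2) in old and from 22.3 to 26.6 CPM (median 24.5) in young brains. It ranged from 27.6 to 45.1 CPM (median 38.2) in old and from 42.7 to 66.9 CPM (median 52.6) in young fat bodies. It too separated the tissues without overlap at both ages (beside 9.21% of all contigs in old and 8.7% in young queens). The log2 difference was 0.97 ± 0.08 (adjusted p = 5.3e-12). DDX28, a helicase of the mitochondrial ribosome's assembly in human cells, was higher by 0.68 ± 0.09 (adjusted p = 4.5e-08). Eukaryotic initiation factor 4A-III, the helicase at the core of the exon junction complex that splicing leaves on mRNA, was higher by 0.42 ± 0.08 (adjusted p = 3.4e-05).

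The dbp2-like contig of 2289 bases, named after a yeast helicase that helps assemble mRNA with its proteins, had the largest difference toward the fat body among the 21 and also the widest spread. It ranged from 0.338 to 68.8 CPM (median 21) in old brains and from 0.621 to 48.5 CPM (median 23.3) in young ones. In fat bodies it ranged from 1.04 to 153 CPM (median 72.2) in old queens and had a median of 227 CPM and a highest value of 789 CPM in young queens. The tissues overlapped in old queens and did not in young ones (beside 8.7% of all contigs), and 15 of 16 queens had more in the fat body. The log2 difference was 2.65 ± 0.56 (adjusted p = 0.00011; a fit blocked on queen gave 0.0024). The other dbp2-like contig, of 2320 bases, did not pass, at 0.28 with a 95% interval of -0.01 to 0.58, and passed without old queen O-189 (adjusted p = 0.033) and without young queen Y-102 (adjusted p = 0.013).

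Among the contigs of RNA-binding regulators 4 of 6 passed, all toward the fat body (66.7%). That is close to the 61.8% of the ant-hit described contigs, beside 25.2% of all contigs. The squid-like contigs share a gene, and the hnRNP U gene was higher in the brain when its contigs were summed, as given below. The squid-like contig of 1598 bases ranged from 7.91 to 19.5 CPM (median 12.1) in old and from 4.85 to 44.4 CPM (median 11.6) in young brains. Its fat body levels were 38.4 to 82.1 CPM (median 49) in old and 76.7 to 169 CPM (median 96.1) in young queens. Every fat body library lay above the brains of its age (beside 9.21% of all contigs in old and 8.7% in young queens). The log2 difference was 2.47 ± 0.23 (adjusted p = 1.2e-10).

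NOB1, the nuclease that makes the last cut in the small ribosomal RNA in yeast, was a low contig with little spread. It ranged from 5.16 to 7.55 CPM (median 5.7) in old and from 5.88 to 7.74 CPM (median 6.35) in young brains. In fat bodies it ranged from 8.13 to 13.7 CPM (median 10.5) in old and from 12.2 to 19.6 CPM (median 16.2) in young queens. At each age all fat body libraries lay above all brain libraries (beside 9.21% of all contigs in old and 8.7% in young queens). The log2 difference was 1.06 ± 0.1 (adjusted p = 1.2e-10).

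Rsf1 was higher in the fat body in all 16 queens, by 0.69 ± 0.06 (adjusted p = 1.1e-11). The hnRNP U contig, named after a nuclear scaffold and splicing protein of mammals, was higher by 0.77 ± 0.15 (adjusted p = 4.5e-05). RNA-binding protein 42 did not pass (0.17 with an interval of 0.00 to 0.34, adjusted p = 0.073), but passed without old queen O-603 (adjusted p = 0.046) and without young queen Y-102 (adjusted p = 0.019). The squid-like contig of 2244 bases did not pass either (-0.14 with an interval of -0.30 to 0.03). It passed as higher in the brain without old queen O-426 (-0.18, adjusted p = 0.048).

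The exosome is represented by 1 contig, RRP43-like, a subunit of its ring. It ranged from 9.1 to 13.2 CPM (median 11.8) in old and from 11.7 to 13.6 CPM (median 12.5) in young brains, and from 11.2 to 20.2 CPM (median 16) in old and from 17.3 to 34.1 CPM (median 26) in young fat bodies. The tissues overlapped in old queens, yet all 16 queens had more in the fat body, with a log2 difference of 0.77 ± 0.11 (adjusted p = 2.1e-07). Pre-mRNA-processing factor 6, which bridges the parts of the tri-snRNP, had a log2 difference of 0.61 with an interval of -0.23 to 1.46. It had 0 counts in both tissues of old queen O-829, which allows up to 0.168 CPM in the brain and 0.114 CPM in the fat body (3 counts of the library's total).

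**Figure D2:**
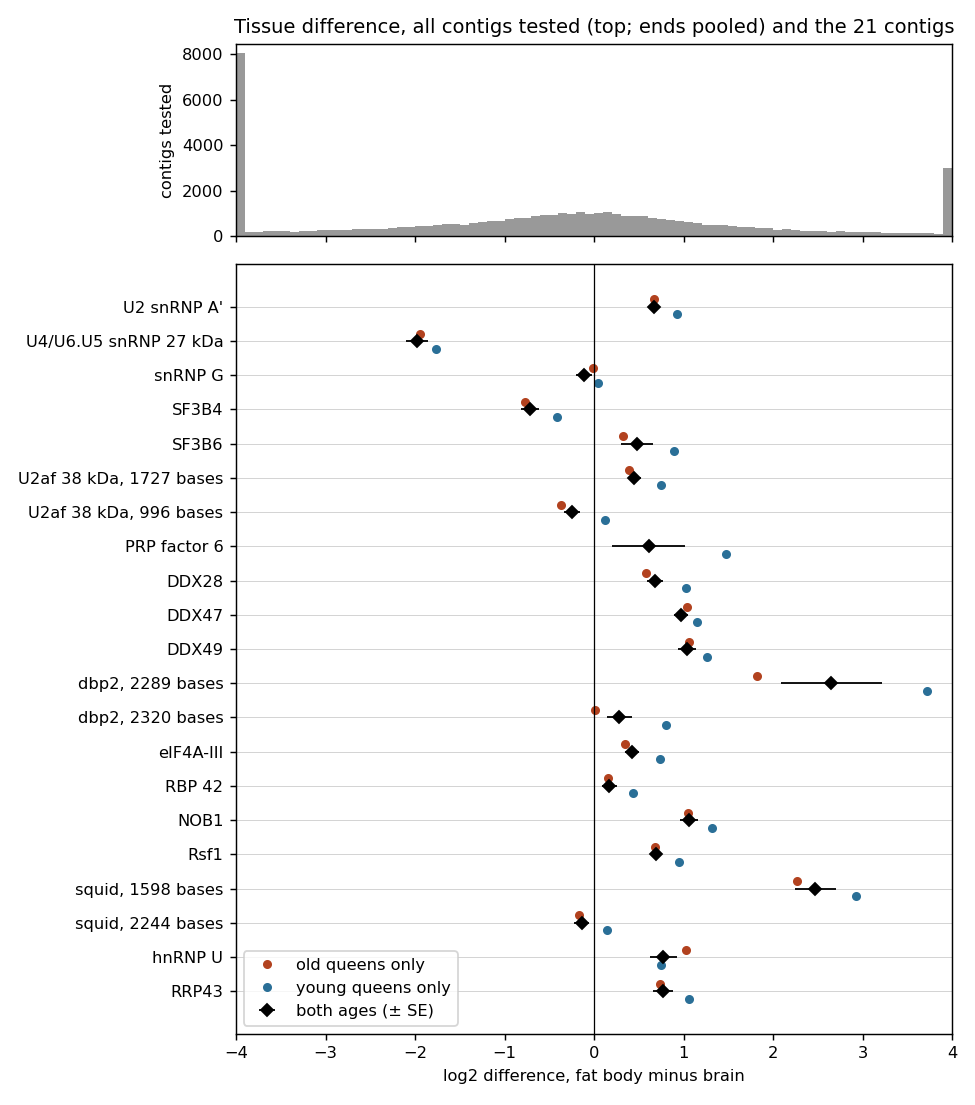
Tissue difference on the log2 scale, fat body minus brain. The upper panel counts all 48253 contigs tested in steps of 0.1 with values beyond 4 pooled at the ends; the lower panel gives each RNA processing contig over both ages with its SE (black) and in separate fits of old (red) and young (blue) queens. The 27 kDa protein of the tri-snRNP lies at -1.98 and the shorter squid-like contig at 2.47.

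The tissue difference within 1 age is not independent of how the contigs were chosen, since each such fit holds libraries of the age contrast that chose them, and it is given as a description. In young queens alone 19 of the 21 differences were positive with a median of 0.89, and in old queens alone 15 of 20 were positive with a median of 0.48. The median of all contigs tested was -0.27 in the fit of young and -0.05 in that of old queens. A set of 3 contigs had opposite signs in the 2 ages and passed in neither direction in young queens: the shorter U2af contig (0.12 in young, -0.37 in old), the longer squid-like contig (0.14 and -0.17) and snRNP G (0.04 and -0.01).

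Of the 21 contigs, 9 share their assembly gene with other contigs, which may be isoforms, alleles or close copies. For these the share of the gene's counts held by the contig was compared between the tissues of each queen with a two-sided exact permutation test that flips the sign of each queen's difference, over 16 queens. This comparison was chosen after seeing the data, 9 shares were tested, and their p-values were adjusted over those 9. Age in the tissue of its own table chose each contig. These tests hold the libraries of that choice and are not free of it, and medians by age are given as a description. Contigs of 1 gene share sequence, and the counting may have moved reads between them.

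The 4 contigs of the squid-like gene were used in different proportions in the 2 tissues. The contig of 1598 bases held a mean of 7.07% ± 3.98 (SD, n = 16) of the gene's counts in brains and 32.5% ± 6.12 in fat bodies. Its median share in brains and fat bodies was 6.58% and 29.9% in old and 5.51% and 34.5% in young queens. The contig of 2244 bases held 84.6% ± 3.55 in brains and 62.2% ± 5.91 in fat bodies. All 16 queens moved the same way for both contigs (exact permutation p = 3.1e-05, the smallest the test can give, adjusted p = 9.2e-05), and as shares of 1 total the 2 shifts are not independent. Summed over its 4 contigs, the gene was higher in the fat body by 0.36 (log2, edgeR adjusted p = 9.7e-05).

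For hnRNP U the contig and its gene pointed in opposite directions. The described contig of 3954 bases held 11.6% ± 2.53 of the counts of its gene in brains and 34.1% ± 7.9 in fat bodies, with the higher share in the fat body in all 16 queens (exact permutation p = 3.1e-05, adjusted p = 9.2e-05). A second contig of the gene, of 3896 bases, had a median of 70.5 CPM in brains of old queens and 71.7 CPM in those of young queens, against 28 and 29.3 CPM in fat bodies. Summed over its 3 contigs, the gene was higher in the brain (log2 difference -0.77, edgeR adjusted p = 1.1e-07), while the described contig was higher in the fat body by the same size.

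The dbp2-like gene has 8 contigs. The described contig of 2289 bases held 5.6% ± 4.42 of the gene's counts in brains and 25.6% ± 14.6 in fat bodies, higher in the fat body in 15 of 16 queens (exact permutation p = 6.1e-05, adjusted p = 0.00014). Its median share in brains and fat bodies was 4.96% and 16.5% in old and 5.8% and 35.3% in young queens. The contig was chosen as higher in young than in old fat bodies. Summed over the 8 contigs, the gene was higher in the fat body by 0.55 (log2, edgeR adjusted p = 6.7e-07), against 2.65 for the contig of 2289 bases. The contig of 2320 bases held 29% ± 5.12 and 25.5% ± 8 (exact permutation p = 0.13, adjusted p = 0.16). A contig of 1102 bases from the same gene, not described in the age tables, went from a median of 12.9% in brains of either age to 5.42% in old and 1.88% in young fat bodies.

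The other shared genes changed less. Pre-mRNA-processing factor 6 held 0.775% ± 0.434 of its gene's counts in brains and 1.43% ± 1.11 in fat bodies (exact permutation p = 0.018, adjusted p = 0.032). Its share was higher in the fat body in all 8 young queens and in 3 of the 8 old ones, with medians of 0.642% and 1.78% in young and of 0.789% and 0.678% in old brains and fat bodies. The contig was chosen as higher in young than in old fat bodies. The test over both ages holds those libraries and is not free of that choice, and the split by age is a description. An undescribed contig of 3076 bases held a median of 71.3% to 83.2% of the gene. The SF3B6-like contig held 12.3% ± 4.96 and 17.8% ± 7.24, a difference that did not pass (exact permutation p = 0.038, adjusted p = 0.057). Its median share in brains and fat bodies was 10.6% and 10.4% in old and 11.8% and 21.8% in young queens. The U2af contigs of 1727 and 996 bases held most of the counts of their genes, at 96% ± 2.24 and 87.2% ± 4.17 in brains, and the shares in fat bodies differed by less than the SD between queens (exact permutation p = 0.16 and 0.75).

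**Figure D3:**
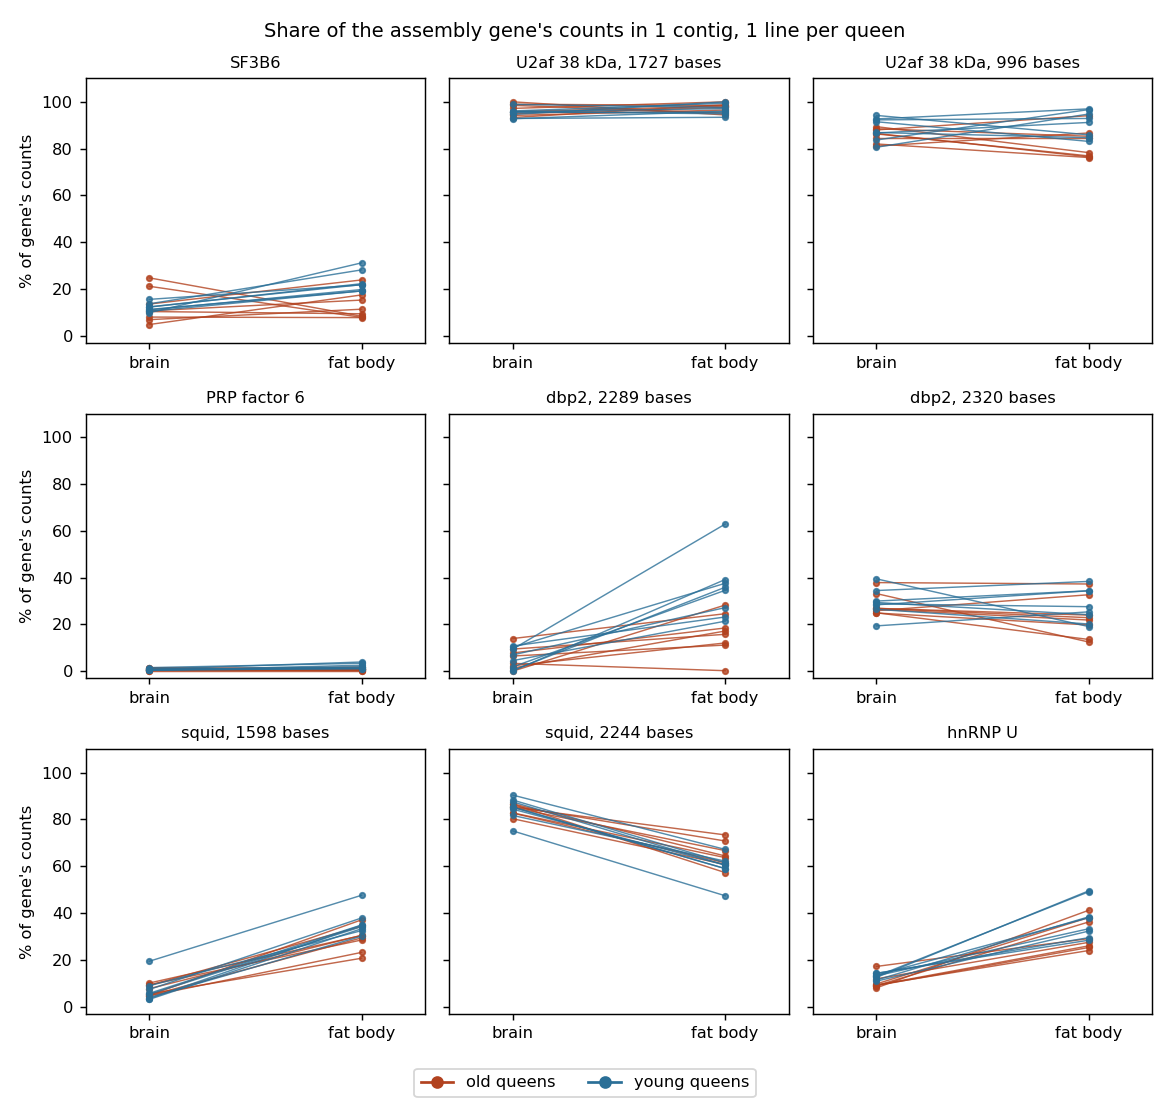
Share of the counts of its assembly gene held by each of 9 contigs, in percent, in both tissues of the same queen, with 1 line per queen (old red, young blue, n = 16). Each line of the 1598-base squid-like contig and of the hnRNP U contig rises from brain to fat body, and each line of the 2244-base squid-like contig falls.

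Age in the fat body is the contrast that chose 20 of the 21 contigs, and its values are a description. The fitted log2 differences, old minus young, lay between -1.99 and -0.33 with a median of -0.58. In the edgeR fit over 27664 contigs 6 of the 20 passed as lower in old queens, beside 0.195% of all contigs (0.647% passed in either direction), and nothing is read from that count because the contigs were chosen on it. The count of 6 became 0 without old queen O-603 or old queen O-796, 2 without old queen O-469, young queen Y-134 or young queen Y-594, and 3 without old queen O-189, O-269 or O-829. It was also 0 with no count filter and 17 with all 32 libraries in 1 fit. With counts summed per gene, 14 of the assembly genes of these contigs passed. For 4 of the 20 the old and young ranges did not overlap, beside 0.181% of all contigs with old below young.

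Eukaryotic initiation factor 4A-III was 1 of these 4. It ranged from 56.5 to 80.7 CPM (median 66.3) in old fat bodies and from 86.5 to 148 CPM (median 103) in young ones, a log2 difference of -0.77 ± 0.14. Rsf1 ranged from 212 to 312 CPM (median 250) in old and from 321 to 464 CPM (median 370) in young fat bodies (-0.57 ± 0.11). For both proteins every old library lay under every young one.

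The remaining 2 of the 4 were the U2af contigs. The contig of 1727 bases ranged from 44 to 54.3 CPM (median 48.2) in old and from 58.9 to 81.5 CPM (median 68.4) in young fat bodies (-0.52 ± 0.11). The contig of 996 bases ranged from 6.92 to 10.8 CPM (median 8.8) in old and from 10.8 to 17.8 CPM (median 14.7) in young ones (-0.75 ± 0.16). The 2 ranges of the shorter contig meet at 10.8 CPM when rounded, with the old value the lower.

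Of the other 2 contigs past the threshold, DDX28 ranged from 24 to 47.1 CPM (median 37.3) in old and from 46.3 to 81.3 CPM (median 62.6) in young fat bodies, with a log2 difference of -0.82 ± 0.15. The squid-like contig of 1598 bases had a log2 difference of -1.02 ± 0.19. Both overlapped slightly between the ages, and all 8 old libraries of each lay below the young median. The largest fitted differences were those of the contigs with the widest spread, the dbp2-like contig of 2289 bases (-1.99 ± 0.6) and pre-mRNA-processing factor 6 (-1.68 ± 0.55). The smallest was that of U2 small nuclear ribonucleoprotein A′ (-0.33 ± 0.1).

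Several measures moved between old and young fat bodies beside these contigs. The share of the 100 most abundant contigs was higher in old fat bodies, as given above. Described contigs with a best hit outside the ants took 811 to 1800 of each 1000000 counts (median 1120) in old and 1460 to 2670 (median 1940) in young fat bodies. The 12 fat body contigs summed to 1020 to 8490 CPM (median 4820) in old and 143 to 2990 CPM (median 569) in young fat bodies, and 5 gut contigs to 111 to 1920 CPM (median 818) and 84.3 to 582 CPM (median 158). Within these lists the directions were mixed: of the 6 fat body contigs tested 3 were higher and 3 lower in old queens, from -2.99 for a fatty acid synthase-like contig to 4.27 for a fatty acid synthase, and of the 3 gut contigs tested 2 maltase 2-like contigs were higher (2.75 and 1.96) and V-type proton ATPase subunit C was lower (-1.11). The haemocyte contig, croquemort-like, stood at 234 to 459 CPM and 98 to 244 CPM. The 2 muscle contigs summed to 1.21 to 7.5 CPM and 2.4 to 29.3 CPM, the glia contig stood at 23 to 33.4 CPM and 31.5 to 44.8 CPM, and the 2 neuron contigs summed to 0.405 to 5.78 CPM and 0.0849 to 0.693 CPM. The photoreceptor contig stood at 0.109 to 0.48 CPM (median 0.404) in old and 0.441 to 1.57 CPM (median 0.993) in young fat bodies. In young fat bodies 1 fat body contig and 2 gut contigs were at 0 in all libraries. These contigs too carry descriptions because they differed with age in the authors' test, and their part in the lower levels of the RNA processing contigs was not tested.

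Age in the brain did not choose the 20 contigs of the fat body table, and there it was tested. None of the 20 passed, and neither did any other of the 40572 contigs (0% called; 4.64% had an unadjusted p under 0.05 in either direction, 1.9% as lower in old). DESeq2 called 615 contigs and 0 of the 20. Of the 20 fitted log2 differences 16 were negative, old minus young, with a median of -0.10 and a range of -0.25 to 0.12, beside 48.7% negative and a median of 0.01 over all contigs tested. Among 609 ant-hit contigs of the fat body table tested in the brain 55.8% were negative with a median of -0.04. The brains come from the same queens as the fat bodies, and the 2 tissues of a queen deviated together from their group means (r of 0.35 to 0.44 across 48253 contigs), so the brain values are not from a separate set of animals.

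Of the 20, 2 had an unadjusted p under 0.05. DDX47 ranged from 17.3 to 24.7 CPM in old and from 22.3 to 26.6 CPM in young brains, with 7 of 8 old libraries under the young median. Its log2 difference was -0.20 ± 0.09 (95% interval -0.39 to -0.02, edgeR adjusted p = 1). Eukaryotic initiation factor 4A-III ranged from 48.4 to 71.5 CPM (median 56.5) in old and from 57.1 to 74.3 CPM (median 71.5) in young brains (-0.20 ± 0.09, 95% interval -0.39 to -0.01, edgeR adjusted p = 1). Both sets of ranges overlapped.

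The next in order were snRNP G and DDX28. The snRNP G contig ranged from 32.6 to 56 CPM (median 43.6) in old and from 41.8 to 61.1 CPM (median 51.4) in young brains, with a log2 difference of -0.25 and a 95% interval of -0.50 to 0.00. DDX28 ranged from 24.9 to 33.5 CPM (median 28.4) and from 28.9 to 38.9 CPM (median 32.7), with a log2 difference of -0.16 and an interval of -0.35 to 0.03. For 7 of 8 old libraries of each the level was below the young median.

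The width of the 95% interval of the age difference in the brain varied between contigs. The interval of Rsf1 was -0.23 to 0.03 on the log2 scale, that of the 1727-base U2af contig -0.14 to 0.23, and that of the 2244-base squid-like contig -0.27 to 0.12. It was -0.41 to 0.16 for DDX49, -0.50 to 0.09 for the 27 kDa protein of the tri-snRNP and -0.37 to 0.34 for the dbp2-like contig of 2320 bases. The widest were those of the dbp2-like contig of 2289 bases (-1.68 to 1.92), pre-mRNA-processing factor 6 (-1.12 to 1.11), the squid-like contig of 1598 bases (-1.02 to 0.68) and SF3B6-like (-0.66 to 0.46). In old brains 1 library stood above the others in these contigs: that of queen O-603, at 16951384 counts among the 3 smallest old brain libraries, was above the group median for all 20 contigs.

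The hnRNP U contig is the reverse case, chosen on the brain and open to a test in the fat body. In brains it ranged from 6.02 to 10.1 CPM (median 7.96) in old and from 10.1 to 12.1 CPM (median 10.8) in young queens, with every old value under every young one and a log2 difference of -0.43 ± 0.11, given as a description (beside 0.0296% of contigs with old below young without overlap). Summed with the other contigs of its gene, the age difference in the brain was -0.10. In fat bodies it ranged from 4.59 to 19.9 CPM (median 15) in old and from 13.1 to 31.8 CPM (median 16.6) in young queens. These overlapped, and the log2 difference of -0.35 ± 0.27 did not pass (edgeR adjusted p = 0.68, 95% interval -0.93 to 0.23).

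**Figure D4:**
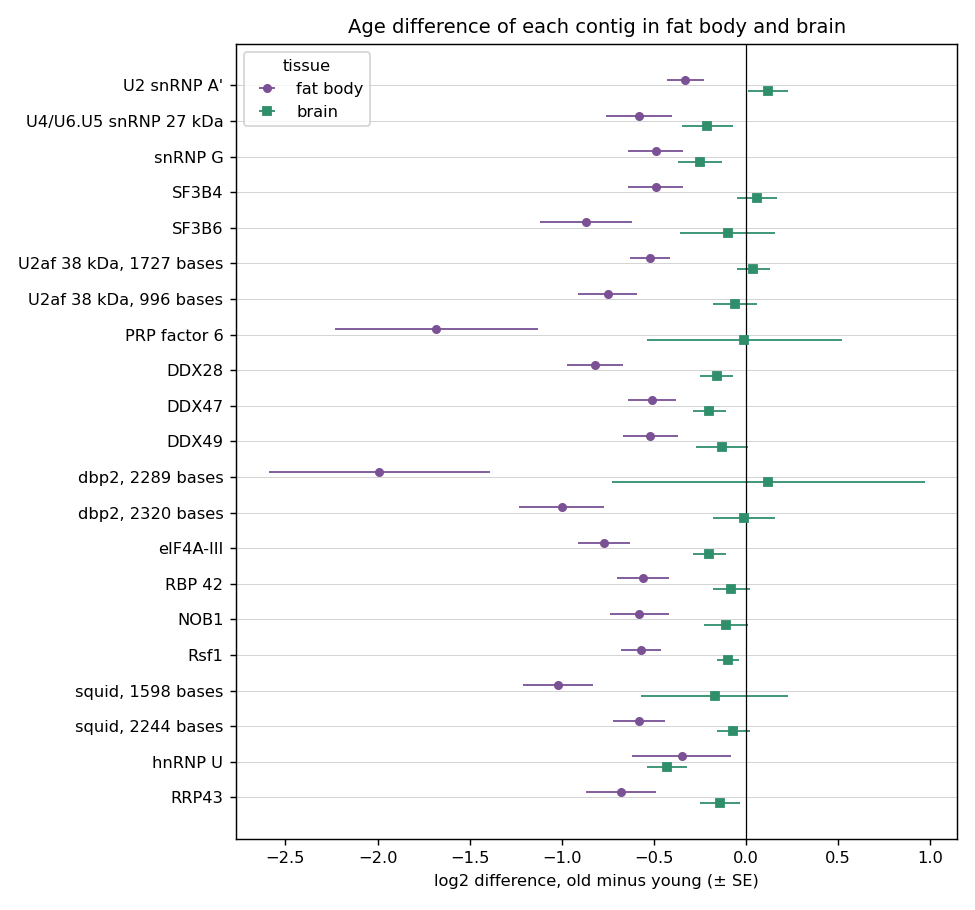
Age difference of each contig on the log2 scale, old minus young, with its SE, in the fat body (circles) and the brain (squares), n = 8 old and 8 young queens. In the fat body, where 20 of the 21 contigs were chosen for their difference, values run from -1.99 to -0.33; in the brain those of the same 20 contigs run from -0.25 to 0.12.

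Other steps of gene expression are present among the described contigs and were tested in the same fits. In the tissue fit 61.8% of the ant-hit described contigs and 25.2% of all contigs were higher in the fat body. Of 17 transcription contigs tested, 13 were higher in the fat body and 4 in the brain, with a median of 0.58, such as RNA polymerase II subunit RPB3 (1.06, adjusted p = 4.5e-09). The transcription words also caught a mitochondrial poly(A) polymerase, which extends RNA and was higher in the brain (-0.88, adjusted p = 3.2e-08). Of 12 contigs of tRNA and rRNA processing and ribosome biogenesis 8 were higher in the fat body and 2 in the brain, with a median of 0.60. The rRNA methyltransferase NSUN4 was among the 8 (0.85, adjusted p = 1.8e-08), and so was arginyl-tRNA--protein transferase 1, which modifies proteins (2.20, adjusted p = 1.1e-11).

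All 5 translation factor contigs tested, of 9 listed, were higher in the fat body with a median of 1.04, among them initiation factor 1A (1.48, adjusted p = 3.7e-14) and 2 contigs of initiation factor 4A-I (0.74 and 1.84). Of the 8 contigs of nuclear transport 4 were higher in the fat body and 1 in the brain, with a median of 0.28. The 1 higher in the brain was the nuclear pore protein Nup107 (-2.03, adjusted p = 1.9e-09). In the brain none of these contigs passed for age, and 14 of 17, 7 of 12, 5 of 5 and 4 of 8 in the same order of lists were lower in old queens. There 55.8% of the tested ant-hit contigs of the fat body table and 48.7% of all contigs were lower. In the fat body these shares were 57.8% and 49.4%. Of the lists, which the authors chose on age in the fat body, 15 of 17, 10 of 12, 5 of 5 and 8 of 8 were lower in old queens there. The 4 exceptions, with higher fitted levels in old queens, were RNA polymerase I subunit RPA1 (1.11), arginyl-tRNA--protein transferase 1 (1.06), threonylcarbamoyladenosine tRNA methylthiotransferase (0.76) and mediator subunit 13-like (0.73), of which RPA1 alone was past the threshold.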

How the data were processed

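The authors deposited whole-number read counts per contig for 32 libraries, with no scaling, per the file headers. The submitters' processing notes name RSEM 1.3.0 with Bowtie and Bowtie2, Trimmomatic 0.36, FastQC 0.11.5 and DESeq2 1.2.10, without their roles, and which assembler made the contigs was not given in what was used here. RSEM can share reads between similar contigs. The authors' deposited comparison tables hold a mean normalised signal, log2 fold changes, their error and test score, and p-values with their adjustment. Adjusted p-values, descriptions and the direction of the log2 fold changes were used from them. In those age tables a positive log2 fold change, as deposited, belonged to contigs with more counts in young queens, so the sign is turned here.

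The counts were tested with edgeR 4.0.16 (R 4.3.3), by the quasi-likelihood test with TMM scaling, after filterByExpr (minimum count 10, minimum total 15), with Benjamini-Hochberg adjustment over all contigs tested and a threshold of 0.05. The tissue fit held all 32 libraries, and age was fitted within a tissue. Levels are counts per 1000000 (CPM) scaled over all 32 libraries, so their medians need not give the fitted differences exactly. Intervals are 95% intervals from the fitted error. Scripts were tested on simulated data. Libraries are separate queens within a tissue, and total counts set a precision that covers counting error only. Both tissues of a queen share its number per the labels; the deviations of the 2 libraries from their group means correlated at 0.35 to 0.44 in all 16 queens, and the queen as a block was an alternative. DESeq2 1.42.0, another scaling, no filter, sums per assembly gene and leaving out each library or queen were the others.

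The 21 contigs, the other lists and the tests were chosen with earlier results of these data known. All 21 contigs are named. Values by group are given for those past the age threshold, up to 6 with the largest tissue difference in each direction among those past the threshold (3 toward the brain) and the 4 with the smallest p for age in the tissue that did not choose them. List words were matched to descriptions, with transportin and trypsin as whole words. No genome or sequence was used here.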

Additional observations from a re-analysis of the deposited data

Results flagged for a closer look

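In 4 of the 84 combinations of contig and group, 1 library stood far from the other 7, its gap to the nearest one divided by the range of the group being above Dixon's 95% critical value. For normally distributed values that criterion marks about 1 in 20 groups by chance. The dbp2-like contig of 2289 bases reached 789 CPM in the fat body of young queen Y-102, where the group median was 227 CPM. The squid-like contig of 1598 bases reached 44.4 CPM in the brain of the same queen, where the median was 11.6 CPM. The hnRNP U contig reached 31.8 CPM in its fat body, where the median was 16.6 CPM. SF3B4 was lowest in the fat body of young queen Y-333, at 15.5 CPM, where the median was 22.7 CPM. In queen Y-102 total counts were 23826705 in the brain, the lowest of the young brains, and 24868080 in the fat body. Both were within the range of all libraries. Its fat body library had the lowest share of counts in the 100 most abundant contigs among fat bodies (37.1%). Described contigs with a best hit outside the ants took 2670 of each 1000000 counts in its fat body and 1710 in its brain, the highest of the fat bodies and of the brains. Without queen Y-102 the tissue difference was 2.75 for the squid-like contig, and without its fat body library the age difference of hnRNP U in the fat body was -0.18.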

How the results depend on the processing

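In the tissue comparison 13 contigs were higher in the fat body and 3 in the brain. Leaving out each queen gave 12 to 15 and 2 to 4, with 31494 to 32373 contigs called over all, and the queen as a block gave 13 and 3 (SF3B6-like adjusted p = 0.044, shorter U2af contig 0.033) and changed the call of none of the 21. With median-of-ratios scaling the longer squid-like contig passed as higher in the brain (-0.18, adjusted p = 0.046), as it did with no filter (-0.28, adjusted p = 0.023). With no filter the SF3B6-like call was lost (adjusted p = 0.23). With counts summed per gene, hnRNP U turned to -0.77, the squid-like gene to 0.36 and pre-mRNA-processing factor 6 to -0.00, which follows from the other contigs of those genes being added. The SF3B6-like call was lost (0.06, adjusted p = 0.5), the dbp2-like gene stood at 0.55 and RNA-binding protein 42 passed (0.21, adjusted p = 0.011). In young queens alone the longer squid-like contig (0.14), snRNP G (0.04) and the shorter U2af contig (0.12) changed sign. In old queens alone the dbp2-like contig of 2289 bases (1.82, adjusted p = 0.062) and SF3B6-like (adjusted p = 0.43) did not pass, and pre-mRNA-processing factor 6 was filtered out. All contigs called for tissue numbered 50943 with DESeq2, 93613 with no filter, 20026 in young and 19300 in old queens alone, against 31453.

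For age in the brain 0 contigs were called, 615 with DESeq2, 4 with all 32 libraries in 1 fit and 0 to 1 when leaving out a library, with 0 of the 20 each time. The sign of near-zero values changed when a library was left out, for the dbp2-like contigs (-0.33 to 0.36 and -0.10 to 0.12), pre-mRNA-processing factor 6 (-0.23 to 0.18), the shorter squid-like contig (-0.30 to 0.33), SF3B6-like (-0.30 to 0.01) and the longer U2af contig (-0.03 to 0.07). Summed per gene, the dbp2-like gene was at 0.06.

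For age in the fat body 179 contigs were called, 1205 with DESeq2, 38 with no filter, 824 per gene, 2135 with all 32 libraries and 40 to 311 when leaving out a library. Of the 20 contigs 6 passed, 9 with DESeq2, 0 with no filter, 17 with all 32 libraries and 0 to 7 when leaving out a library. Summed per gene, 14 of the assembly genes of these contigs passed. All 20 had negative values under every alternative run. Per gene the SF3B6-like gene was at -0.03 and pre-mRNA-processing factor 6 at -0.20, close to 0. The causes of differences between tests were not tested. No paired analysis was possible for age because the old and young queens are different animals.

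The labels give no colony, and without a genome the contigs of a gene cannot be sorted into isoforms, alleles or copies.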
